A study of Mus musculus with 4 samples.

Results

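The H3K27ac regions described here lie far from any known gene start. They are the regions on chromosomes 1 to 19 whose centre is more than 100 kb from every transcription start of the GENCODE vM1 annotation of the mouse genome (build mm9). Of the 12566 regions listed in mdxIKKβf/f hearts, 2566 met this rule, and of the 22981 regions listed in mdxHRTΔIKKβ hearts, 4406 did, so that 6972 of 35547 regions were far regions. A far region was counted as inside a gene when its centre lay in an annotated gene body, and as in a gene desert otherwise. In mdxIKKβf/f hearts 560 far regions were inside genes and 2006 in deserts, and in mdxHRTΔIKKβ hearts 887 were inside genes and 3519 in deserts. The rule used position alone and no measured value.

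H3K27ac was mapped by ChIP-seq in whole hearts of mdx mice at an age of 7 months, with 1 ChIP library and 1 input library per genotype. All mice carried the mdx mutation and so lacked dystrophin, and all carried floxed alleles of the gene for IKKβ, the kinase that activates NF-κB. In mdxHRTΔIKKβ mice a Myh6-cre transgene, driven by the promoter of alpha myosin heavy chain, deleted IKKβ in cardiomyocytes. The mdxIKKβf/f mice were littermates without cre and kept IKKβ. Chromatin of fibroblasts, endothelial cells and other cells of the heart, in which this cre is not active, entered both libraries. With 1 library per genotype there is no replicate error, and no difference between genotypes or between classes of regions was tested. All intervals are 95% intervals that cover counting error only, and neighbouring regions of 1 library are not independent.

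H3K27ac marks active enhancers and promoters. Enhancers are stretches of regulatory DNA that raise the transcription of a gene from a distance, often by looping to its promoter, and some lie very far away, within introns of a neighbouring gene or in gene deserts. Gene deserts are long intervals without genes that are poor in G and C, and some of them flank genes for developmental transcription factors. Very long genes consist mostly of intron, and many of them encode adhesion and synapse proteins of neurons.

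The ChIP libraries held 57852347 tags (mdxIKKβf/f) and 62458751 tags (mdxHRTΔIKKβ). A window of 500 bp needed 29 and 30 tags, respectively, to be listed, against expected counts of 14.5 and 15.6, and every listed region was at least 4-fold over input. The file headers also give a limit of 2 and 3 tags per base pair, so the lists were not counted in quite the same way. RNA was not measured in these libraries. Whether the chromatin carried marks of heart muscle was looked at here only through the gene lists below, and only in far sequence.

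To show what such a region looks like, the middle 200 bp of 4 regions are printed, each the top-scoring far region of its list and class, or for genes in mdxIKKβf/f the one ranked next, since the first is not shown. They are given 5′ to 3′ on the plus strand of mm9, in lower case, with capitals where a searched motif matches on either strand. The first is centred in a coding exon of Tmem132d (chr5:128749131-128749330, mdxIKKβf/f). The second lies in a desert near Tmem45b (chr9:31418901-31419100, mdxIKKβf/f), the third in an intron of Nrxn3 (chr12:90794803-90795002, mdxHRTΔIKKβ) and the fourth in a desert near 1700018L24Rik (chr8:12034514-12034713, mdxHRTΔIKKβ). Capitals in the Tmem132d sequence mark 2 CAGCTG matches and 1 match to the NF-κB consensus, those in the Tmem45b sequence 1 CAGCTG match, and those in the Nrxn3 sequence 1 GGAATG match on the minus strand. The sequence near 1700018L24Rik held none of the searched motifs and is built of many short, imperfect repeats of a CA-rich unit.
Tmem132d: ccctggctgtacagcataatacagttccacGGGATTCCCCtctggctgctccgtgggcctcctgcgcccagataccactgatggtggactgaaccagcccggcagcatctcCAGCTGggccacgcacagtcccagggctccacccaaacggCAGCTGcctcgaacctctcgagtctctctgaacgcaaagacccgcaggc
Desert near Tmem45b: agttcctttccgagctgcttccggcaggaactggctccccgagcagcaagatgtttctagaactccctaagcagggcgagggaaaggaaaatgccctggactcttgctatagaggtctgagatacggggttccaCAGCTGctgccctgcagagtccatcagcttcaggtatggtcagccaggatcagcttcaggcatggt
Nrxn3: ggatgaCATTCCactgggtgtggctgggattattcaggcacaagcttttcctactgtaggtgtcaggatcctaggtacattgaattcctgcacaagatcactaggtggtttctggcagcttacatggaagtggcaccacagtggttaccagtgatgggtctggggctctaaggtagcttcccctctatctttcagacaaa
Desert near 1700018L24Rik: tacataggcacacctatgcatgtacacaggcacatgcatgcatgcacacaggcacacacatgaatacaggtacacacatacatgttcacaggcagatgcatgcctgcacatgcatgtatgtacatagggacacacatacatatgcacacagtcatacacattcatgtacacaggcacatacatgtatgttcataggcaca

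The next sequences come from far regions that were listed in both genotypes, which few were. The 200 bp around the middle of the overlap are shown for 3 of the shared regions with the highest scores. They lie near Tcerg1l (chr7:145760218-145760417), near Zfp804a (chr2:81586772-81586971) and near Robo2 (chr16:73286219-73286418). The overlap near Robo2 spans only 160 bp, so the bases printed there run past both of its ends. All 3 regions lay in deserts, with GC contents of 48%, 57% and 54.5% over the printed bases, and none of the searched motifs was in these letters.
Shared desert near Tcerg1l: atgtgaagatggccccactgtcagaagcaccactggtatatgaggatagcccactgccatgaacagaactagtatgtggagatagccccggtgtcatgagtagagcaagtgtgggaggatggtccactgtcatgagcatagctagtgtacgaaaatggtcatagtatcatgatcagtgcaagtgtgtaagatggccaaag
Shared desert near Zfp804a: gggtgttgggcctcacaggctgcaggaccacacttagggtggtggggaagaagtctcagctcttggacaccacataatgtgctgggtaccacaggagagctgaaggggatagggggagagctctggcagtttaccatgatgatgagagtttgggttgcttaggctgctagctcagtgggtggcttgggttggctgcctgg
Shared desert near Robo2: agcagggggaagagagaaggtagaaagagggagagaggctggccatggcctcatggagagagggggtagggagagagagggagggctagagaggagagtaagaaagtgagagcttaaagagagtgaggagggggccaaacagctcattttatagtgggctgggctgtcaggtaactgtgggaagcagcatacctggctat

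Far regions took up a slightly smaller share of each list than far sequence takes up of the autosomes. Of the 12540 autosomal regions of mdxIKKβf/f hearts 20.5% (Wilson interval 19.8% to 21.2%) were far, and of the 22935 of mdxHRTΔIKKβ hearts 19.2% (18.7% to 19.7%). Sequence more than 100 kb from every start made up 547 of 2394 Mb of the autosomes, or 22.8%. Of this, 98.1 Mb lay inside genes and 449 Mb in deserts. Far sequence of mdxIKKβf/f hearts held 4.69 regions per Mb (exact Poisson interval 4.51 to 4.88), against 5.40 (5.30 to 5.51) in sequence within 100 kb of a start. In mdxHRTΔIKKβ hearts the densities were 8.06 (7.82 to 8.30) and 10.0 (9.89 to 10.2) per Mb. The density of far regions was thus 0.869 times that of the rest (0.832 to 0.907) in mdxIKKβf/f and 0.803 times (0.777 to 0.830) in mdxHRTΔIKKβ. These ratios crossed to above 1 once windows of like GC content were compared, as given below.

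Among far regions, those inside genes were the denser class in both lists per length of sequence. At equal GC content the desert over gene ratio was 0.906 (0.866 to 0.946) in mdxIKKβf/f and 1.02 (0.990 to 1.06) in mdxHRTΔIKKβ. These 2 intervals leave out the counting error of the expected numbers, which rest on only 560 and 887 regions inside genes. They are thus too narrow to tell whether the classes differed at equal GC content. Inside genes there were 5.71 far regions per Mb (5.24 to 6.20) in mdxIKKβf/f and 9.04 (8.45 to 9.65) in mdxHRTΔIKKβ, and in deserts 4.47 (4.28 to 4.67) and 7.84 (7.58 to 8.11). The desert density was 0.783 times (0.713 to 0.862) and 0.868 times (0.806 to 0.935) the density inside genes. The density of far sequence inside genes over that of gene sequence near a start was 0.991 (0.906 to 1.08) in mdxIKKβf/f hearts and 0.829 (0.773 to 0.888) in mdxHRTΔIKKβ hearts. At equal GC content these ratios were 1.70 (1.56 to 1.85) and 1.41 (1.32 to 1.51), above 1 in both lists.

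Per length of sequence the density of all regions was lower far from starts than near them, without a step at 100 kb, while at equal GC content it was higher far from starts than near them, as given below. Between 95 and 100 kb from a start there were 142 regions (5.72 per Mb) in mdxIKKβf/f hearts and 207 (8.34 per Mb) in mdxHRTΔIKKβ hearts. Just past the limit, between 100 and 105 kb, there were 125 (5.36 per Mb) and 198 (8.48 per Mb). In deserts the density of mdxIKKβf/f regions was 4.84 per Mb (4.55 to 5.13) at 100 to 200 kb and 3.34 (2.80 to 3.95) at 500 to 1000 kb. The values for mdxHRTΔIKKβ were 8.83 (8.44 to 9.23) and 5.83 (5.11 to 6.63). Beyond 1000 kb they were 5.08 (1.65 to 11.9) in mdxIKKβf/f and 7.11 (2.86 to 14.6) in mdxHRTΔIKKβ, with intervals that include those of the bins nearer in. Inside genes no such decline could be seen in mdxIKKβf/f hearts, where the density was 5.55 (5.0 to 6.14) at 100 to 200 kb and 7.73 (4.51 to 12.4) at 500 to 1000 kb. Only 17 regions lay in that last bin. In mdxHRTΔIKKβ hearts the 2 densities were 9.34 (8.63 to 10.1) and 6.82 (3.82 to 11.3), with intervals that overlap.

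**Figure D1:**
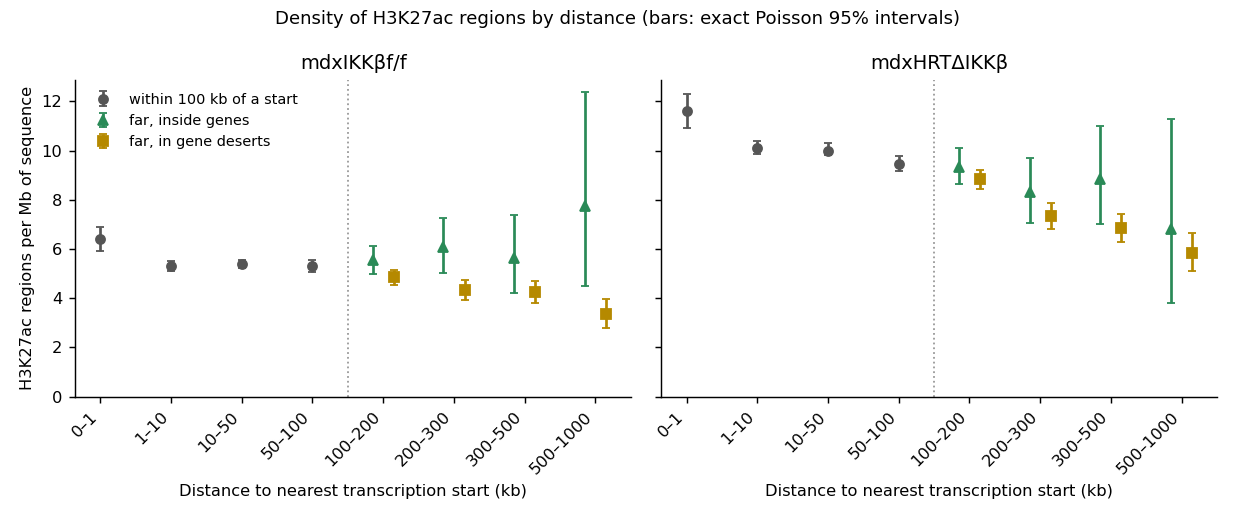
H3K27ac regions per Mb of sequence (y axis) by distance of the region's centre to the nearest transcription start in kb (x axis), one panel per genotype. Grey circles are all regions within 100 kb, green triangles far regions inside genes and yellow squares far regions in deserts, bars are exact Poisson 95% intervals, and the dotted line marks 100 kb. Desert densities go down from 4.84 to 3.34 per Mb in mdxIKKβf/f and from 8.83 to 5.83 per Mb in mdxHRTΔIKKβ between 100 and 1000 kb, and the few regions beyond are not drawn.

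The outermost regions lay over 1 Mb from any start. There were 5 such regions in mdxIKKβf/f and 7 in mdxHRTΔIKKβ hearts, in 0.985 Mb of sequence, all in deserts. The region farthest out in mdxIKKβf/f hearts was at chr14:81599375-81599875, 1185 kb from the nearest start, with 32 tags and 21.3-fold over input, where 1 input tag was counted. In mdxHRTΔIKKβ hearts it was at chr14:81582700-81583200, 1183 kb out, with 31 tags and 4.29-fold over input. Both lie in the same desert between Olfm4 and Pcdh17, and they do not overlap. The median distance of a far region was 182 kb (quartiles 133 and 282 kb) in mdxIKKβf/f and 178 kb (131 and 273 kb) in mdxHRTΔIKKβ.

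Far regions had the same median peak score as other regions. The peak score was taken to be the number of tags in a region's best 500 bp window. Its median was 31 in far regions and 31 in the rest of the mdxIKKβf/f list, and of 32 in both classes of the mdxHRTΔIKKβ list. Far regions inside genes and in deserts had these same medians. All of them lie just above the lowest listed scores of 29 and 30 tags, so equal medians say little about equal strength. Differences lay in the upper tail. Scores within 5 tags of the lowest were held by 82.8% of far and 78.9% of other regions in mdxIKKβf/f, and by 80.4% and 77.0% in mdxHRTΔIKKβ. The highest far score was 52 in mdxIKKβf/f and 64 in mdxHRTΔIKKβ, against 56 and 73 among the other regions, which were about 4 times as many.

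**Figure D2:**
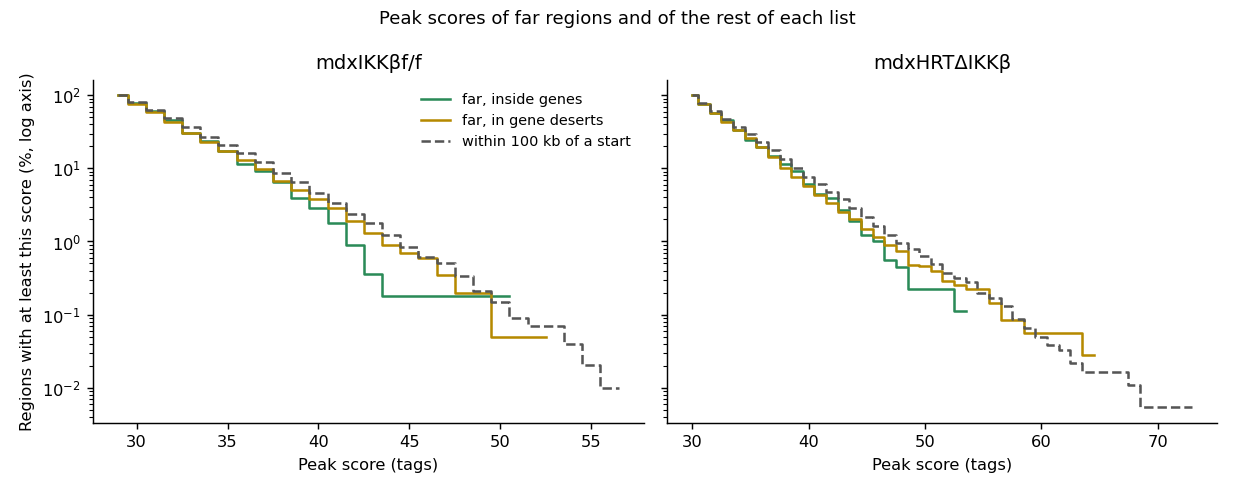
Share of regions with at least a given peak score (y axis, %, log axis) against the peak score in tags (x axis), one panel per genotype, for far regions inside genes (green), far regions in deserts (yellow) and regions within 100 kb of a start (dashed grey). The curves lie close together at low scores, and the dashed curve reaches furthest, to 56 tags in mdxIKKβf/f and 73 in mdxHRTΔIKKβ.

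Most far regions were a single window. In mdxIKKβf/f hearts 86.9% of far regions (85.5% to 88.1%) were exactly 500 bp wide, against 85.5% of the rest. In mdxHRTΔIKKβ hearts the shares were 85.0% (83.9% to 86.0%) and 83.8%. Regions wider than 1000 bp were rare among far regions, with 8 in mdxIKKβf/f and 23 in mdxHRTΔIKKβ. The widest far region spanned 1383 bp in mdxIKKβf/f and 1434 bp in mdxHRTΔIKKβ, both in deserts. Far regions stood alone more often than others. A neighbour of the same list within 10000 bp was found for 11.7% of far and 15.1% of other regions in mdxIKKβf/f hearts, and for 20.1% and 23.9% in mdxHRTΔIKKβ hearts. Such a share also depends on the density of regions, which was lower in far sequence. It was not compared at equal density. In covered bases, far sequence held 2466 bp of listed regions per Mb in mdxIKKβf/f and 4269 bp in mdxHRTΔIKKβ, against 2850 and 5347 bp elsewhere.

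Enrichment over input differed little from the rest of the list. The median fold over input of far regions was 5.16 in mdxIKKβf/f, the same as in the rest, and 5.05 against 5.0 in mdxHRTΔIKKβ. At least 8-fold enrichment was reached by 14.7% of far regions (13.4% to 16.1%) in mdxIKKβf/f hearts, where 14.8% of all autosomal regions reached it. In mdxHRTΔIKKβ hearts 22.9% of far regions (21.7% to 24.2%) reached it, against 20.7% of all. The mean input tags under far regions were 4.02 and 3.5, and under the others 4.13 and 3.62.

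Far regions were richer in G and C than far sequence as a whole. The 500 bp around the centre of a far region had a median GC content of 45.2% in mdxIKKβf/f and 45.6% in mdxHRTΔIKKβ, while all 500 bp windows of far sequence had a median of 39.0%. The other regions had a median of 48.4% in both lists, and windows within 100 kb of a start had 42.6%. CG dinucleotides numbered 4.24 and 4.18 per 500 bp in far regions, 3.08 in windows of far sequence, and 6.40 and 6.12 in the other regions. Both measures were thus higher in far regions than in far sequence as a whole, and lower than in regions close to genes.

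Within far sequence the density climbed steeply with GC. Windows under 36% GC held 0.670 regions per Mb (0.548 to 0.811) in mdxIKKβf/f and 0.702 (0.577 to 0.846) in mdxHRTΔIKKβ. Windows of 44% to 48% held 9.31 (8.64 to 10.0) and 17.9 (16.9 to 18.8), and windows of 52% to 56% held 24.0 (20.7 to 27.6) and 39.1 (34.9 to 43.7). At the same GC content, far sequence below 56% GC held more listed regions per Mb than sequence near genes in every stratum of both lists. At 44% to 48% the latter held 6.46 (6.21 to 6.72) and 12.8 (12.5 to 13.2) regions per Mb. Only at 56% GC and above was far sequence the lower of the pair, with 43 and 67 regions in 2.40 Mb and intervals that overlap those of the rest.

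**Figure D3:**
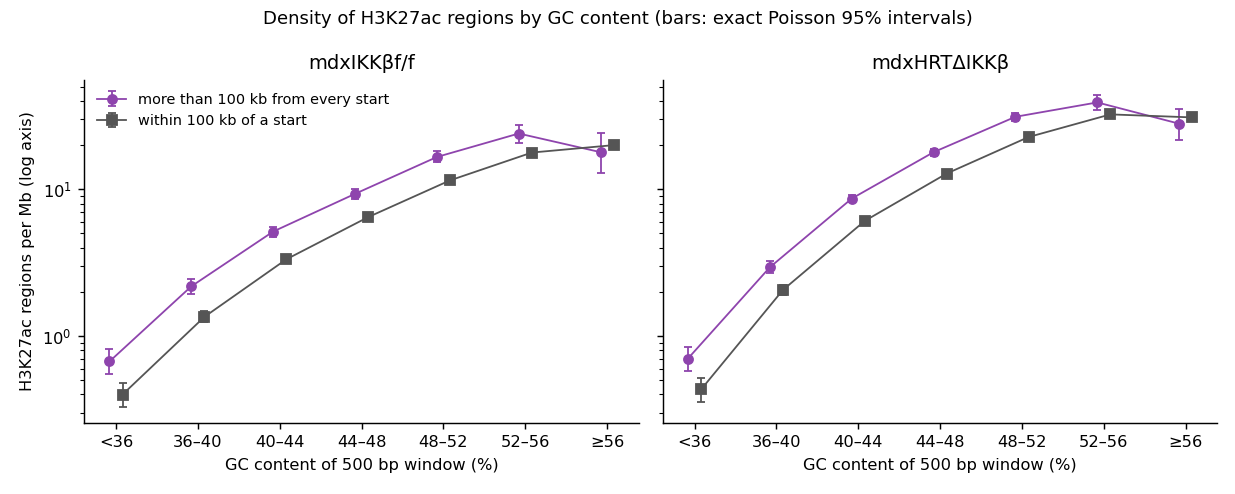
H3K27ac regions per Mb (y axis, log axis) in 500 bp windows grouped by GC content (x axis, %), one panel per genotype, for far sequence (purple circles) and for sequence within 100 kb of a start (grey squares), with exact Poisson 95% intervals. The purple line lies above the grey one in all strata below 56% GC, for example at 9.31 against 6.46 per Mb at 44% to 48% in mdxIKKβf/f.

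Standardised for GC, far regions outnumbered the count expected. If far sequence had held the densities that sequence within 100 kb of a start showed in GC strata of 2%, 1712 far regions would have been listed in mdxIKKβf/f hearts and 3144 in mdxHRTΔIKKβ hearts. The 2566 and 4406 listed were 1.5 times (1.44 to 1.56) and 1.4 times (1.36 to 1.44) as many. By this measure the ratio was 0.704 (0.651 to 0.761) within 1 kb of a start in mdxIKKβf/f and 0.718 (0.677 to 0.761) in mdxHRTΔIKKβ. It was 1.42 (1.35 to 1.5) and 1.38 (1.32 to 1.43) at 100 to 200 kb, and 1.69 (1.53 to 1.86) and 1.51 (1.4 to 1.63) at 300 to 500 kb. Beyond 1000 kb it was 2.65 (0.862 to 6.19) with 5 regions and 2.11 (0.850 to 4.36) with 7, and both intervals include 1. The direction of the comparison of far regions with the rest therefore depends on whether sequence of equal length or of equal GC content is compared. The inputs were not listed by window, and how far GC content moved the ChIP tags themselves was not tested.

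**Figure D4:**
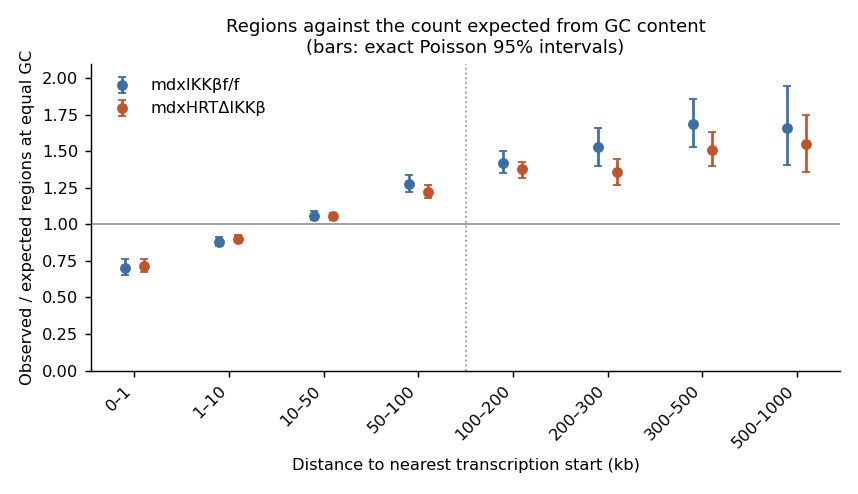
Observed regions over the number expected from the GC content of the sequence (y axis, a ratio) by distance to the nearest transcription start in kb (x axis), for mdxIKKβf/f (blue) and mdxHRTΔIKKβ (orange), with exact Poisson 95% intervals. Expected numbers use the densities of sequence within 100 kb of a start, left of the dotted line. The ratio lies at 0.704 and 0.718 within 1 kb and between 1.36 and 1.69 from 100 to 1000 kb, and the few regions beyond 1000 kb are not drawn.

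Far regions inside genes lay almost wholly in introns. The centre was in an exon for 16 of 560 (2.86%, 1.77% to 4.59%) in mdxIKKβf/f and for 18 of 887 (2.03%, 1.29% to 3.18%) in mdxHRTΔIKKβ. Of regions inside genes within 100 kb of a start, 15.6% and 14.1% were centred in an exon. How much of the gene sequence itself was exon, far from or near a start, is not given here. These shares therefore have no background to be read against. Among the 3 highest-scoring far regions inside genes, exonic ones were nevertheless found in each list. In mdxIKKβf/f these were in Fbn2, the gene of an elastic fibre protein (chromosome 18, 50 tags, 6.08-fold over input), and in Tmem132d, which encodes a membrane protein (chr5:128748901-128749559, 43 tags, 4.65-fold). All 659 bases of the Tmem132d region were coding sequence of an exon of 886 bp. The third was in an intron of Cacna2d3, a subunit of voltage-gated calcium channels (chr14:30188590-30189090, 42 tags, 6.88-fold).

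In mdxHRTΔIKKβ hearts the strongest far region inside a gene was in an intron of Nrxn3, a presynaptic adhesion receptor (chr12:90794589-90795215, 53 tags, 5.43-fold). A coding exon of Rgnef, a guanine nucleotide exchange factor, followed (chr13:98700731-98701365, 52 tags, 8.15-fold), and 486 of its 635 bases were coding. The third was in an intron of Lmbrd1, a lysosomal membrane protein of cobalamin metabolism (chr1:24815131-24815631, 48 tags, 4.39-fold). None of these 6 regions overlapped a region of the other list.

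Deserts held more far regions than genes did, 2006 against 560 in mdxIKKβf/f and 3519 against 887 in mdxHRTΔIKKβ. A larger class can reach a higher top score by number alone. In each list the strongest desert regions had a higher top score than far regions inside genes. In mdxIKKβf/f hearts they were near Tmem45b (chr9:31418750-31419250, 52 tags), near Chrna7, a nicotinic receptor subunit (chr7:70467239-70467739, 49 tags), and at chr3:4959169-4959669 (49 tags), 131 kb from the nearest start. In mdxHRTΔIKKβ hearts they were near 1700018L24Rik (chr8:12034300-12034927, 64 tags), near Adra2a, an alpha-2 adrenergic receptor whose start was 287 kb away (chr19:54406537-54407163, 63 tags), and at chr1:57248260-57248893 (58 tags). The regions near Tmem45b and 1700018L24Rik overlapped a region of the other list and the other 4 did not. The GC content of these 6 ran from 48.6% to 55.4%, above the far median.

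Few far regions were listed in both genotypes, in about the same share as among all regions. Of far regions in mdxIKKβf/f, 82 (3.20%, 2.58% to 3.95%) overlapped a region of mdxHRTΔIKKβ by at least 1 bp, against 3.18% of all autosomal regions of the list. Of those in mdxHRTΔIKKβ, 81 (1.84%, 1.48% to 2.28%) overlapped one of mdxIKKβf/f, against 1.74% of all. Of the 82 shared regions 16 were inside genes and 66 in deserts. Their normalised tags per base in mdxHRTΔIKKβ over mdxIKKβf/f had a median of -0.06 on the log2 scale, with a range of -0.76 to 0.67, and 36 of the 82 were above 0. Regions had to pass the threshold of both lists to be in this set, which limits how far the values can differ.

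The shared far regions with the highest lower score of the pair were all in deserts. The first was near Prr16 on chromosome 18, with 49 tags in mdxIKKβf/f and 47 in mdxHRTΔIKKβ. The one near Tcerg1l had 45 and 48 tags, the one near Zfp804a, a zinc finger gene, 43 and 38, and the one near Robo2, a receptor that guides axons, 38 and 39. Then came a region 115 kb from the nearest start on chromosome 7 with 37 and 39 tags, and one 141 kb from it on chromosome 1 with 35 and 39. The scores of each of these pairs lay within 5 tags of each other, but picking pairs by their lower score favours like scores. Other shared pairs differed more. The pair near Tmem45b had 52 tags in mdxIKKβf/f and 32 in mdxHRTΔIKKβ. One near 1700018L24Rik had 30 and 64. Shared far regions had a median GC content of 48.1%, above that of all far regions.

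More far regions were listed in mdxHRTΔIKKβ than in mdxIKKβf/f hearts, by a factor of 1.72 (1.64 to 1.80), and this factor hung on the threshold. It was 1.58 (1.42 to 1.76) inside genes, 1.75 (1.66 to 1.85) in deserts and 1.86 (1.81 to 1.90) in the rest of the lists. The threshold was 2.01 times the expected count in mdxIKKβf/f and 1.92 times in mdxHRTΔIKKβ. With a score of at least 32 tags required in mdxHRTΔIKKβ, the lowest whole number at the relative threshold of the other list, 2550 of its far regions remained and the factor was 0.994 (0.940 to 1.05). At 31 tags, just below it, 3346 remained and the factor was 1.30 (1.24 to 1.37). At 40 tags or more in both lists there were 255 far regions in mdxHRTΔIKKβ and 92 in mdxIKKβf/f. The factor was then 2.77 (2.18 to 3.56), with a limit not scaled to the expected counts of 14.5 and 15.6. In mdxHRTΔIKKβ 114 far regions had at least 43 tags and 89 had at least 44. In the rest of that list 703 and 534 did, against 457 other mdxIKKβf/f regions at 40 tags or more. At 8-fold or more over input the factor for far regions was 2.68 (2.38 to 3.02). The rest of the lists moved the same way, with factors of 1.14 (1.11 to 1.17) at 32 tags, 1.46 (1.42 to 1.5) at 31, 3.13 (2.81 to 3.48) at 40 tags in both lists and 2.52 (2.37 to 2.68) at 8-fold. Depth, threshold and genotype cannot be told apart here.

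The excess also varied with GC content. Among far regions under 36% GC there were 105 in mdxIKKβf/f and 110 in mdxHRTΔIKKβ hearts, a factor of 1.05 (0.794 to 1.38). At 44% to 48% GC there were 728 and 1398, a factor of 1.92 (1.75 to 2.1). Regions near genes showed factors of 1.08 (0.827 to 1.42) and 1.99 (1.90 to 2.09) in the same strata. Over chromosomes, the factor for far regions ran from 1.34 on chromosome 2 (104 and 139 regions) to 2.18 on chromosome 16 (102 and 222).

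Chromosomes differed in how much far sequence they held. It made up 9.16% of chromosome 11, 10.5% of chromosome 2 and 11.8% of chromosome 4, and between 15.7% and 31.3% of the others. Far regions took up 7.35% of the regions on chromosome 11 in mdxIKKβf/f hearts and 33.3% of those on chromosome 18, which bore the largest share in that list. Per Mb of far sequence, mdxIKKβf/f regions ran from 3.48 (2.87 to 4.19) on chromosome 10 to 6.43 (5.42 to 7.58) on chromosome 7. The far sequence of chromosome 7 also had the highest mean GC content of all autosomes (41.0%), and it had the highest density of mdxHRTΔIKKβ regions too (10.5, 9.18 to 11.9). The lowest density in mdxHRTΔIKKβ was that of chromosome 3 (6.31, 5.62 to 7.07), whose far sequence had the lowest mean GC content (38.5%).

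Inside genes, 699 gene models held far sequence, 398 of them held at least 1 far region of either list and 185 held regions of both. Far regions numbered 20 over both lists in each of the leading genes, Ptprn2 and Npas3. Ptprn2 encodes a phosphatase-like receptor of secretory granules and held 8 in mdxIKKβf/f and 12 in mdxHRTΔIKKβ. Npas3, a transcription factor of the developing brain, held 12 and 8. Next were Fam155a, an auxiliary subunit of the sodium leak channel NALCN (7 and 11), Tmem132d (12 and 6), Gm20388 (4 and 14) and Auts2, a regulator of neuronal development (6 and 12). The list of 10 was closed by the lincRNA gene 9530036O11Rik (8 and 9), the NMDA receptor subunit gene Grin2a (7 and 9), 1700112E06Rik (5 and 11) and Ctnnd2, a catenin of neurons (6 and 10). Npas3 and Tmem132d were the members of this set with more regions in mdxIKKβf/f than in mdxHRTΔIKKβ.

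The median score of each of these genes lay between 30.5 and 35.5 tags. In Ptprn2 they ran from 29 to 32 in mdxIKKβf/f (median 30.5) and from 30 to 43 in mdxHRTΔIKKβ (median 32). Npas3 had 29 to 36 and 30 to 34, and Tmem132d 29 to 43 (median 32) and 31 to 44 (median 35.5). Gm20388 had 29 to 40 in mdxIKKβf/f and 30 to 46 (median 33.5) in mdxHRTΔIKKβ, where its highest scores were 46, 45, 43 and 40. Gm20388 is a gene model of 4435 kb on chromosome 8 that runs through many shorter genes, with 510 kb of far sequence of 51.8% GC.

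By density, the leaders among the 34 genes with at least 500 kb of far sequence were Ptprn2, Gm20388, Ctnnd2 and Auts2. Ptprn2 held 14.2 regions per Mb (6.11 to 27.9) in mdxIKKβf/f and 21.2 (11.0 to 37.1) in mdxHRTΔIKKβ. Gm20388 held 7.84 (2.14 to 20.1) and 27.4 (15.0 to 46.0), Ctnnd2 11.0 (4.04 to 23.9) and 18.3 (8.79 to 33.7), and Auts2 9.48 (3.48 to 20.6) and 19 (9.80 to 33.1). The mean GC content of their far sequence was 44.5%, 51.8%, 41.2% and 42.9%, above the 39.0% that was the median of far windows. All 34 genes held at least 1 far region, with a median density of 5.21 per Mb in mdxIKKβf/f and 8.26 in mdxHRTΔIKKβ.

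Long genes of heart muscle did not stand out by density per length of sequence, though the counts were small. Of 16 such genes, 9 had far sequence, 2.74 Mb in all, with 12 far regions in mdxIKKβf/f hearts (4.37 per Mb, 2.26 to 7.64) and 19 in mdxHRTΔIKKβ hearts (6.92 per Mb, 4.17 to 10.8). The densities over all far sequence inside genes, 5.71 and 9.04 per Mb, lay within these intervals. In bulk chromatin, fewer cells of a type and less mark per cell cannot be told apart.

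Single heart genes held few regions each. Ryr2, the calcium release channel of the sarcoplasmic reticulum, had none in mdxIKKβf/f, a count that allows up to 3, and 6 in mdxHRTΔIKKβ with scores up to 38. Ctnna3, a catenin of the intercalated disc, had 4 and 1, and Kcnq1, a potassium channel of repolarisation, 2 and 0. Prkg1, the cGMP-dependent protein kinase, had 2 and 4, and Fhod3, a formin of the sarcomere, 1 and 3. Cacna1c, the pore of the L-type calcium channel, had 1 and 2, as had Sgcd, the delta-sarcoglycan of the dystrophin complex. Pde4d, a phosphodiesterase of cAMP, had 1 and 1, and Slc8a1, the sodium-calcium exchanger, had none in its 4.08 kb of far sequence.

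Long genes of neuronal adhesion and synapses held densities of the same order. The 15 autosomal genes of this list had 8.96 Mb of far sequence, with 44 regions in mdxIKKβf/f (4.91 per Mb, 3.57 to 6.59) and 68 in mdxHRTΔIKKβ (7.59 per Mb, 5.89 to 9.62). In each list 14 of the 15 held at least 1 region. Ctnna2, a catenin of synapses, held 10 and 6 regions, and Cntnap2, a neurexin-like adhesion protein, 4 and 9. Ptprd, with 1053 kb of far sequence, held 3 and 4. The 8 genes at common fragile sites, which include Fhit and Wwox, held 28 regions (6.55 per Mb, 4.35 to 9.47) and 32 (7.48 per Mb, 5.12 to 10.6). The intervals of the 3 lists overlap each other in both genotypes, which with so few regions does not show the lists to be alike. The GC content of their far sequence was 40.4% for heart, 38.2% for neuronal and 39.5% for fragile site genes. These lists were not compared at equal GC content.

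Gene deserts comprised 1863 unbroken stretches with a median of 135 kb, of which 1271 held a far region of either list. Most regions lay in a desert of 741 kb between Fam19a5 and Brd1 on chromosome 15 (chr15:87589767-88330744), with 17 in mdxIKKβf/f and 29 in mdxHRTΔIKKβ. The desert between Sall3, a zinc finger transcription factor gene, and Galr1, the gene of a galanin receptor, on chromosome 18 (754 kb) held 18 and 27. The one between Fam86 and Rbfox1, the gene of a splicing regulator of neurons and muscle, on chromosome 16 (chr16:5424251-6709314) held 18 and 22. The longest of all, 2184 kb between Olfm4 and the protocadherin gene Pcdh17 on chromosome 14 (chr14:80500110-82684335), held 12 and 21. A desert of 428 kb between Irx2 and Irx4 on chromosome 13 (chr13:72870046-73297944) held 12 and 14, and one between Tbc1d22a and Fam19a5 on chromosome 15 (chr15:86328930-86799422) held 10 and 15.

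**Figure D5:**
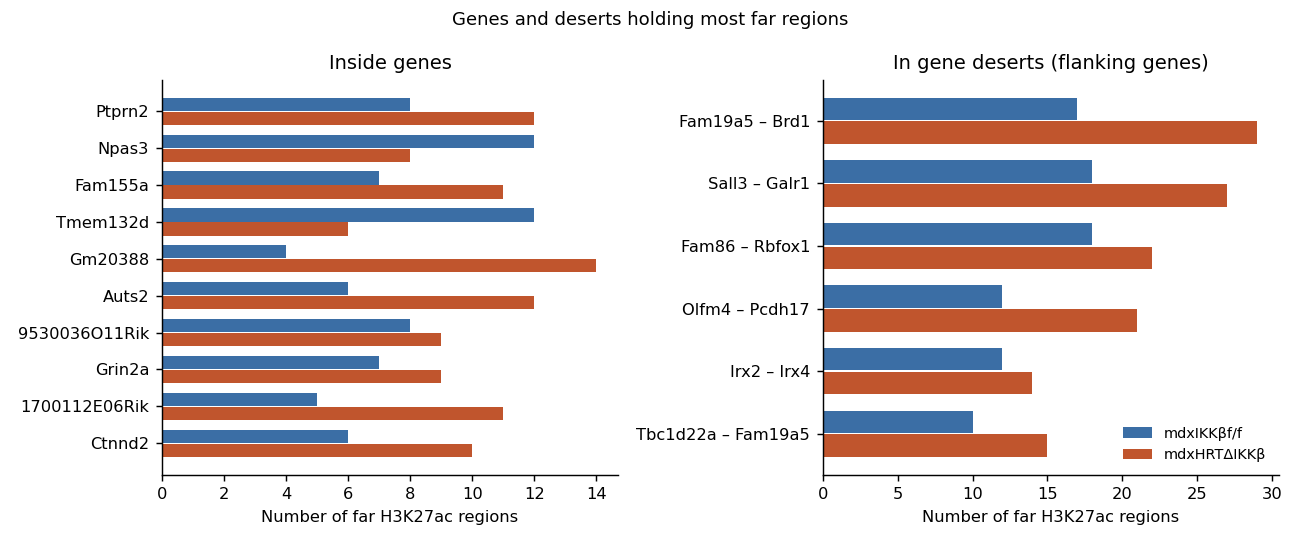
Number of far H3K27ac regions (x axis) in the 10 genes and the 6 gene deserts with most of them over both lists (y axis), for mdxIKKβf/f (blue) and mdxHRTΔIKKβ (orange). Bars start at 0 and are counts of 1 library each. All 6 deserts and 8 of the 10 genes hold more regions in mdxHRTΔIKKβ, with Npas3 and Tmem132d the other way round.

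Irx2 and Irx4 encode Iroquois homeobox transcription factors, and Irx4 is known for its expression in the ventricles of the heart. The desert between them held 28.0 regions per Mb in mdxIKKβf/f and 32.7 in mdxHRTΔIKKβ, against 4.47 and 7.84 over all deserts. Fam19a5 to Brd1 held 22.9 and 39.1 per Mb, and Olfm4 to Pcdh17 5.49 and 9.61. These deserts were named for their counts, so their densities are descriptions. Apart from the desert of Olfm4 and Pcdh17, at 37.5% GC, the 6 had mean GC contents from 43.4% to 46.8%. Scores in the desert of Irx2 and Irx4 ran from 29 to 36 in mdxIKKβf/f and from 30 to 39 in mdxHRTΔIKKβ, and in the desert of Fam19a5 and Brd1 from 29 to 39 and from 30 to 41.

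The 63 deserts of at least 1 Mb together held 303 regions in mdxIKKβf/f (3.60 per Mb) and 505 in mdxHRTΔIKKβ (6.0 per Mb). In the 21 of them with the highest GC content the densities were 4.77 (3.98 to 5.67) and 7.92 (6.89 to 9.07), and in the 21 with the lowest 2.86 (2.27 to 3.56) and 4.76 (3.98 to 5.64).

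Deserts next to transcription factor genes of heart development were looked at as a list, with each desert position assigned to its nearest protein-coding start. Of 18 such genes 15 were the nearest protein-coding gene to some desert sequence, 3.77 Mb in all, with 18 regions in mdxIKKβf/f (4.77 per Mb, 2.83 to 7.54) and 31 in mdxHRTΔIKKβ (8.22 per Mb, 5.58 to 11.7). Whether the lists used here cover the stretch next to Mef2c in full is not known, and without its 795 kb the densities were 6.05 (3.58 to 9.56) and 10.4 (7.08 to 14.8). All these intervals include the 4.47 and 7.84 per Mb of all deserts. Tbx3, a T-box repressor of the conduction system, had 2 and 5, Foxp1 and Meis2 had 3 and 4 each, and Nr2f1 had 3 and 4. Nr2f2, an atrial identity factor, had 1 and 4, and Gata6 1 and 2. Hand2, a factor of the right ventricle, had 0 and 1. Sox9 had 2 and 2 and Meis1 and Irx5 had 1 and 1. Tbx5 had 1 and 0, and Irx3 and Zfpm2 had none in either list. The nearest gene is a label of position, and contact with its promoter was not measured.

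For every motif searched but TGANTCA, the share of far regions with a match lay closer to that of far windows of the same GC content than to that of all far windows. The 500 bp around each centre were searched on both strands for AGATAA (bound by GATA factors), TGANTCA (AP-1), GGAATG (TEAD), CAGCTG (an E-box), and the consensus sequences of MEF2 and NF-κB. A match to the NF-κB consensus can hold a full GGAATG match, and neighbouring matches can share bases. AGATAA was in 28.6% of far regions (26.9% to 30.3%) in mdxIKKβf/f and 25.3% (24.0% to 26.6%) in mdxHRTΔIKKβ, against 33.6% of all far windows and 25.3% and 24.6% of far windows of the same GC content. CAGCTG was in 23.5% (21.9% to 25.2%) and 24.0% (22.7% to 25.3%), against 13.9% of all far windows and 20.9% and 21.5% at the same GC content. TGANTCA was in 14.5% and 13.4%, against 14.7% of all far windows and 13.6% for both lists at the same GC content. GGAATG was in 28.9% and 28.8%, against 25.9% of all far windows and 28.9% and 29.2% at the same GC content.

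The NF-κB consensus was in 4.72% of far regions (3.96% to 5.61%) in mdxIKKβf/f hearts and 4.31% (3.75% to 4.95%) in mdxHRTΔIKKβ hearts. All far windows held it in 2.94%, and far windows of the same GC content in 4.93% and 5.09%. The MEF2 consensus, which is rich in A and T, was in 6.08% (5.22% to 7.07%) and 4.86% (4.26% to 5.53%), against 13.7% of all far windows and 7.32% and 6.86% at the same GC content. In the other regions the NF-κB consensus was in 5.49% and 5.59% and the MEF2 consensus in 3.90% and 3.63%. A match is a description of the letters and was not tested for binding.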

How the data were processed

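H3K27ac ChIP-seq of whole hearts was deposited as 1 region list per genotype, made by the authors with Bowtie2 on mm9 and HOMER findPeaks against the matched input. Versions were not given in the sources used here. The normalised tag column is a signal that the authors scaled to 10000000 tags per library. The peak score is a deposited score, read here as tags in the highest 500 bp window, and the input tags are a deposited signal. Fold over input, a ratio, was computed by the authors at equal depth, and the deposited p-value compares ChIP with input tags and was not used for any comparison. Depth was 57852347 and 62458751 tags, and a count at the threshold of 29 or 30 tags has a wide counting error. Both lists were filtered at 4-fold over input with a p-value of at most 1.00e-04, so weaker windows were not analysed here.

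Distances run from the centre of a region to the nearest start of any GENCODE vM1 transcript, whose build is that of the lists. Densities are regions per Mb of sequence without N. Sequence to which reads cannot be mapped uniquely was not taken out, and no repeat annotation was used. Expected counts at equal GC content used 500 bp windows in strata of 2% GC, with the tails pooled. Shares have Wilson, counts exact Poisson and ratios exact conditional 95% intervals, and zero counts a limit of 3. Ratios at equal GC content have exact Poisson intervals of the observed count alone, with the expected count taken as fixed. Overlap needed 1 bp. Tandem repeats had a period of up to 6 bases. No test was run, because each genotype is 1 library.

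Regions named were the 3 top-scoring far regions of each class and list, the farthest of each list and the 6 shared pairs with the highest lower score. Genes named were the 10 with most far regions and the 4 of highest density with at least 500 kb of far sequence, deserts named the 6 with most. The members and gene lists were chosen with earlier results of these data known. Single values of a few list members are not reported here. Alternatives were protein-coding starts, limits of 50 and 200 kb, 8-fold over input, a score of 1.2 times the lowest, merging within 10000 bp, other overlap rules and GC strata, and, chosen after seeing the data, score limits for the counts of regions, GC strata within genes and the removal of 1 gene model and of 1 desert. Simulated regions with planted distances, overlaps and densities passed 11 of 11 checks of the code. The work ran in Python 3.11.15 with SciPy 1.17.1, pandas 2.3.3 and NumPy 2.4.6, and plots were drawn with matplotlib 3.10.9.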

Additional observations from a re-analysis of the deposited data

How the results depend on the processing

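No paired analysis was possible because each genotype is 1 library, and for the same reason no replicate could be left out. Of 84 alternatives over all results, 47 stayed within the counting interval of the reported value and 32 moved outside it. The other 5 were ratios that crossed to the other side of 1. Among them, deserts over genes in mdxHRTΔIKKβ at equal GC content (1.02, 0.990 to 1.06) had an interval that includes 1. So had the ratio of far region numbers at the relative threshold (0.994, 0.940 to 1.05). Values follow as mdxIKKβf/f and then mdxHRTΔIKKβ. Standardising over GC strata turned the density of far regions over the rest to 1.5 and 1.4, and that of deserts over genes to 0.906 (same direction) and 1.02. That of far over near sequence inside genes went to 1.70 and 1.41, which was added after seeing the data. With protein-coding starts only, the share of far regions was 32.5% and 30.7%. With a limit of 200 kb it was 8.91% and 7.91%, and with 50 kb 35.5% and 33.9%. It was 17.3% and 16.8% among regions with a score of at least 1.2 times the lowest, and 21.2% in mdxHRTΔIKKβ among those at least 8-fold over input. The density of far regions over the rest was 0.812 and 0.713 with 200 kb, 0.908 and 0.847 with 50 kb, 0.706 and 0.684 with the higher score, and 0.911 in mdxHRTΔIKKβ with 8-fold. Deserts over genes was 0.679 in mdxIKKβf/f with 200 kb. The share of far regions exactly 500 bp wide was 89.1% and 89.6% with 8-fold. The share overlapping the other list was 5.49% and 3.27% with that list extended by 1000 bp, and 2.22% and 1.27% when 250 bp had to overlap. The number of far regions in mdxHRTΔIKKβ over mdxIKKβf/f was 0.994 at the relative threshold of the other list and 1.30 at 1 tag below. It was 2.68 with 8-fold and 2.77 with a score of at least 40 in both lists, a limit not scaled to depth. For regions within 100 kb of a start these values were 1.14, 1.46, 2.52 and 3.13. All of these alternatives were chosen after seeing the data. For limits of distance, score and overlap the change follows from counting other regions, and for the rest the cause was not tested. Differences in median score and median fold stayed within their intervals under the alternatives run. Without the gene model Gm20388, deserts over genes was 0.786 and 0.879.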

Other observations

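The X chromosome was outside the comparisons and held far fewer listed regions. In its 15.6 Mb of sequence more than 100 kb from every start, mdxIKKβf/f hearts had 0 regions, which allows up to 3, and mdxHRTΔIKKβ hearts had 1. The whole X chromosome held 6 and 21 regions. The paper states that its mice were male, so X was present in 1 copy under the same tag thresholds. How far this bears on the counts was not tested. Another 20 and 25 regions lay on other sequence and were not placed.

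Perfect tandem repeats with a period of up to 6 bases were not common in far regions. A run of at least 50 bp was found in 27 far regions of mdxIKKβf/f (1.05%) and in 53 of mdxHRTΔIKKβ (1.2%), against 2.84% of far windows, taken at every 200th window. Among the 82 shared far regions 0 held such a run, and the sequence near 1700018L24Rik, the far region with most tags, had a longest perfect run of 14 bp.

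By nearest protein-coding start, desert regions were most numerous around Fam19a5, with 13 in mdxIKKβf/f and 22 in mdxHRTΔIKKβ. Olfm4 followed with 12 and 20, and Sall3, a zinc finger transcription factor gene, with 12 and 19. Among the first 12 genes by this count were Rbfox1 (10 and 16), the adhesion genes Cadm1 (8 and 17) and Cdh9 (12 and 12), Celf4, a regulator of splicing in neurons (12 and 13), and Irx1 (5 and 18). The desert sequence assigned to Irx1, the third Iroquois gene of that cluster, came to 581 kb.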
